A study of Gallus gallus with 6 samples.

Results

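Of the 667 mature miRNAs counted in broiler (Gallus gallus) abdominal fat, 151 carried a name of the form gga-miR- followed by a number of 2000 or more, which is the rule by which they were chosen. The study fed 240 female chicks, aged 1 day when it began, diets holding 0, 20, 50, 75 or 100 IU of synthetic vitamin E (DL-α-tocopherol acetate). Abdominal fat at day 35 was sequenced for small RNA in 3 libraries of birds given 50 IU VE (vitamin E) and in 3 libraries labelled control. The labels do not print a dose beside the control libraries, and whether each library is a separate bird is not stated. The p-values set the difference between the groups against the spread among the libraries of a group, and that spread may be technical.

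miRNAs are short RNAs cut from a hairpin precursor, and one or both arms of the hairpin (5p and 3p) can be kept to repress target transcripts. Numbers are given in the order in which miRNAs are entered in the public registry, so a high number marks a later discovery, usually by deep sequencing. Later entries tend to be found in few species and at low levels, and some were afterwards recognised as pieces of other small RNAs. Many hairpins lie inside the genes of longer transcripts and may be made together with them.

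Depth was similar in both groups, with totals between 5844435 and 7062595 counts for vitamin E and between 5028671 and 7357204 counts for control. A count of 0 allows up to 3 counts, and that limit covers counting error only, since the reads carry no molecular identifiers. No row of any kind was at 0 in all 6 libraries, so a marker that matched a row had a count somewhere by necessity. Of 31 marker names of other cell types, in 9 lists, 27 matched a row, and every list had counts in both groups. Their summed TPM ran from 22004 to 30342 with vitamin E and from 25226 to 30537 in control for endothelium, from 9726 to 13971 and from 8735 to 13650 for leukocytes, from 3250 to 5580 and from 1452 to 2940 for red cells, from 304 to 612 and from 278 to 446 for striated muscle, and from 324 to 412 and from 274 to 430 for epithelium. For gut the sums were 114 to 167 with vitamin E, against 103 to 922 in control, for the nervous system 166 to 190 and 31.4 to 41.8, for liver 5.30 to 7.71 and 12.8 to 20.9, and for endocrine cells 0.850 to 1.97 and 1.35 to 4.08. No list of miRNAs that mark fat alone was used, so the tissue label itself was not checked.

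The 151 miRNAs made up 22.6% of the rows and a very small part of the reads. They held 0.111% ± 0.0244 of the counts with vitamin E, against 0.0890% ± 0.0314 in control (SD, n = 3 each), a difference smaller than the spread between libraries. One member, miR-2188-5p, carried its direction: without it the share was 0.0421% ± 0.00171 with vitamin E, against 0.0509% ± 0.0234 in control. Their median total over all 6 libraries was 4 counts, the same as that of the 169 miRNAs with numbers from 1400 to below 2000, while the 231 miRNAs with lower numbers had a median of 1270. Detection was sparse: 47 were seen in exactly 1 library, 25 in 2, 16 in 3, 12 in 4, 14 in 5 and 37 in all 6. That is 24.5% of them in every library, close to the 24.3% of miRNAs with numbers from 1400 to below 2000 and the 32.8% of predicted ones, against 81.8% of the miRNAs numbered below 1400. A single count over all libraries was the whole record of 41, and 100 had a total of 10 counts or fewer. The number seen per library was 82, 78 and 86 with vitamin E, against 71, 90 and 78 in control.

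Most of the reads belonged to the oldest names among them. The 8 members numbered 2128 to 2954 held 76.2% of the members' counts over all libraries, and the 24 numbered 3064 to 3607 held 18.4%. The 88 numbered 6516 to 6711 held 4.22%, with a median total of 3 counts each, and the 31 numbered 7441 to 7477 held 1.17%, with a median total of 2. Still, 15 of those 88 and 4 of those 31 were seen in every library.

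Presence in one group alone carried little weight at this depth. Both groups held 90 of the members, 27 were seen only with vitamin E, against 34 only in control. Of those 27, 24 had a total of 1 or 2 counts, as did 31 of those 34. The same counts were not made over all rows, so nothing particular to the members is read from them. One member, miR-6649-5p, was seen in all vitamin E libraries and in no control library, with 6, 2 and 2 counts against 0, 0 and 0. Since 0 allows up to 3 counts, no fold is given. In the opposite direction miR-6555-5p had 0 counts in each vitamin E library and 1 in each control library, a total at the limit that a count of 0 allows. Both were singled out after their values were seen, and neither was deep enough to be tested. How many of all rows were split between the groups in this way was not counted.

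The most abundant members were miR-2188-5p, miR-2954 and miR-3523, which together held 89.4% ± 2.0 of the members' counts with vitamin E, against 84.0% ± 3.40 in control (SD, n = 3 each). By mean TPM, here the count divided by the library total and multiplied by 1000000 whatever the length, they ranked 63, 84 and 95 of 667. Next came miR-2131-5p at rank 157. A further 6 completed the 10 most abundant: miR-3525, miR-3538, miR-6631-5p, miR-7455-3p, miR-6615-5p and miR-2131-3p, whose mean TPM ran from 12.3 for miR-3525 down to 5.002 for miR-2131-3p.

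**Figure D1:**
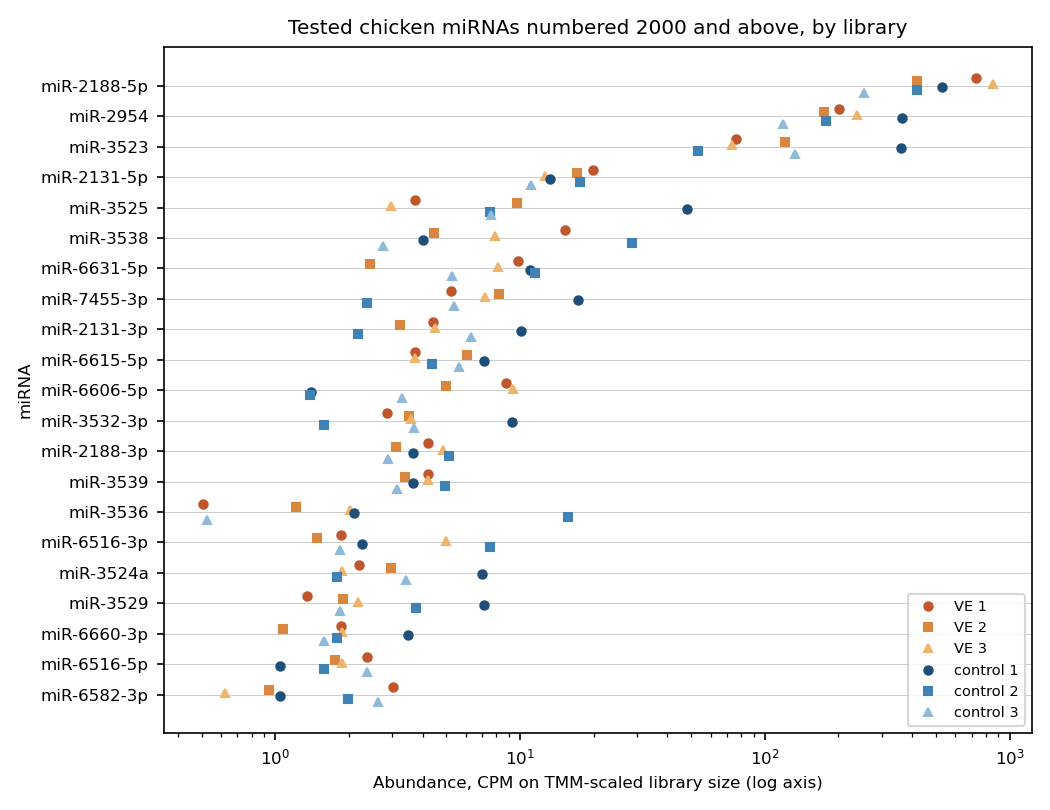
Abundance of the 21 tested members in each library, as counts scaled to a total of 1000000 (CPM) on TMM-scaled library sizes, on a log axis, with vitamin E libraries in orange and control libraries in blue. miR-2188-5p, miR-2954 and miR-3523 stand above the rest, and for several members 1 control library lies far to the right of the other 5.

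The tissue-specific roles of most of these miRNAs are not established, so their genomic setting was read from the RefSeq gene table of assembly GRCg7b. Here and below, overlap with a gene, or a place in it, was read from positions alone, without strand. The 151 names belong to 120 hairpins, of which 112 matched a gene in that table. Of these, 98 (87.5%) overlapped a protein-coding gene, compared with 80.8% of 130 matched hairpins with numbers from 1400 to below 2000 and 68.0% of 153 numbered below 1400. The counting rule and its use of strand are not given in any source used here, so reads from a hairpin and fragments of a transcript around it cannot be told apart. The genes at the positions of the abundant members differ in kind, and whether they are transcribed together with the hairpins was not tested. miR-2188 lies in ANK1, the ankyrin that ties the membrane of red cells to its skeleton, and miR-3523 in DUSP1, a phosphatase gene switched on early by stress and growth factors. miR-2954 overlaps XPA, a DNA repair gene, and miR-2131 overlaps NCBP1, a subunit of the nuclear cap-binding complex. miR-6606, in contrast, overlapped no other gene of the table, and miR-3525 had no matching entry.

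Comparison of the groups asked which of these miRNAs differ with the vitamin E supplement. Only 21 of the 151 members passed the filter on low counts, 13.9% of them, against 35.7% of all rows, and these 21 carried 97.3% of the members' counts. None of the 21 passed the threshold of 0.05. In the quasi-likelihood test of edgeR, with Benjamini-Hochberg adjustment over 238 miRNAs, 0 members were called, where 0.420% of all tested miRNAs were. At an unadjusted p under 0.05 there was 1 member, miR-6606-5p, against 7.56% of all tested. It was higher, as were 5.04% of all tested, and no member was lower, against 2.52% of all tested. DESeq2 and limma on log2(TPM + 1) or log2(TPM + 0.1) called 0 members as well, with 3, 2 and 2 members at an unadjusted p under 0.05. Log2 fold changes of vitamin E over control were above 0 for 6 tested members and below 0 for 15, with a median of -0.36, beside 109 above and 129 below with a median of -0.07 for all tested miRNAs. Because the filter keeps a rare miRNA through the libraries in which it is high, nothing is read from these counts or medians. Scaling by library totals alone shifted the fold changes of all miRNAs by a median of 0.107 and left 7 tested members above 0 and 14 below.

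**Figure D2:**
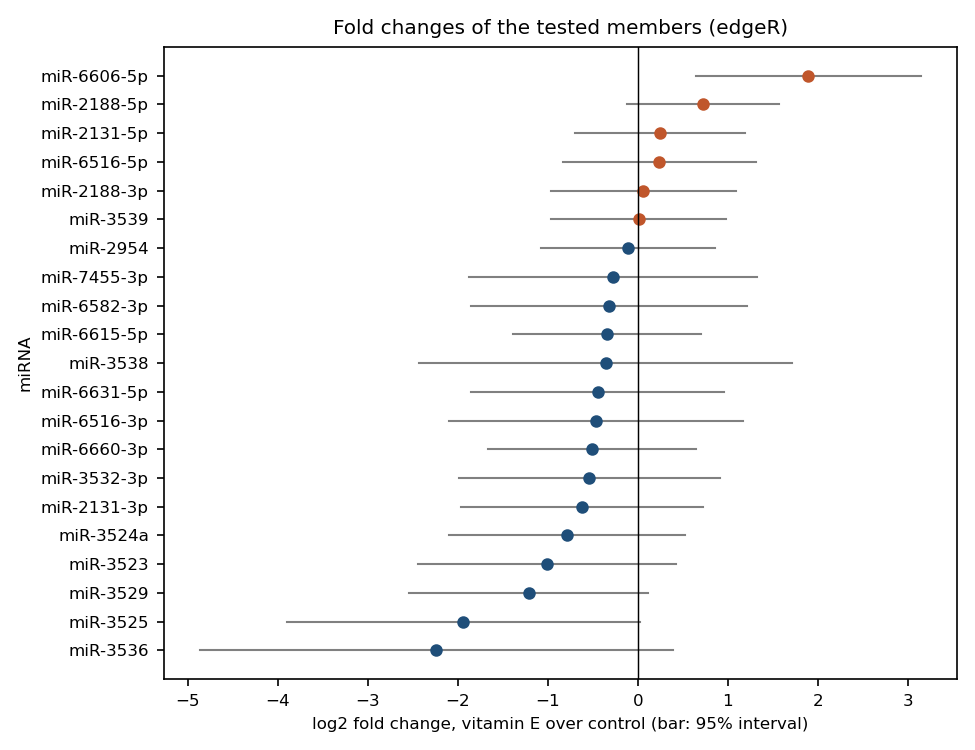
Log2 fold change of vitamin E over control for the 21 tested members (points, orange above 0 and blue below) with 95% intervals from edgeR (bars). The interval of miR-6606-5p lies wholly above 0, from 0.64 to 3.15, before adjustment for the number of miRNAs tested. This member passed the filter on low counts through its vitamin E libraries, so nothing is read from its interval. Every other interval crosses 0.

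miR-6606-5p was the 1 tested member whose groups did not overlap. It passed the filter on low counts through its vitamin E libraries, where it was high. Nothing is therefore read from the lack of overlap or from its unadjusted p. The same holds for its fold change and for that fold change with 1 library left out. It had 52, 37 and 60 counts in the vitamin E libraries, against 8, 7 and 25 in the control libraries, or 8.90, 5.24 and 9.84 TPM against 1.20, 1.39 and 3.40 TPM. Every vitamin E library lay above every control library, as was the case for 8.82% of all tested miRNAs in the same direction (13.9% in either direction), and no tested member was lower without overlap, against 5.04% of all tested. The means were 7.71 ± 2.36 and 2.02 ± 1.10 CPM on TMM-scaled library sizes (SD, n = 3 each), and the log2 fold change was 1.89 (SE 0.55). It did not pass in the quasi-likelihood test of edgeR (adjusted p = 0.277, Benjamini-Hochberg). With any 1 library left out, the log2 fold change stayed between 1.59 and 2.42 and the edgeR quasi-likelihood adjusted p (Benjamini-Hochberg) was at least 0.306. Across the alternatives on all 6 libraries the Benjamini-Hochberg adjusted p was lowest in DESeq2 (0.0938) and highest with median-of-ratios factors in edgeR (0.287). The opposite arm of this hairpin was not among the rows used.

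miR-2188-5p, the most abundant member, had the second smallest p among the members with a positive fold change. Its level was 736, 439 and 898 TPM in the vitamin E libraries, against 457, 422 and 264 TPM in the control libraries. The groups overlapped, since the second vitamin E library lay below the first control library. Means were 665.5 ± 222.9 CPM with vitamin E, against 402.4 ± 139.1 CPM in control (SD, n = 3 each), with a log2 fold change of 0.73 (SE 0.37) and an adjusted p of 0.631 in the quasi-likelihood test of edgeR with Benjamini-Hochberg adjustment. The log2 fold change was 0.45 without vitamin E 3 and likewise 0.45 without control 3.

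The level of miR-2188-5p followed the summed level of the red-cell miRNAs from library to library. Those are miR-451, which matures in red cell precursors, and both arms of miR-144, its neighbour in many vertebrates. miR-451 supplied most of their sum, and the arms of miR-144 did not share its pattern. Log2 fold changes in edgeR were 0.76 (SE 0.37) for miR-451, -0.42 (SE 0.46) for miR-144-5p and -0.04 (SE 0.42) for miR-144-3p. miR-144-5p was highest in control 1, at 147.7 TPM. miR-144-3p was highest in vitamin E 3, as miR-451 was. It stood at 106.8 TPM in control 2, against 48.7 TPM in vitamin E 2. Summed, these red-cell miRNAs stood at 4039, 3250 and 5580 TPM in the vitamin E libraries, against 2825, 2940 and 1452 TPM in the control libraries. For every 100 counts of these markers there were 18.2, 13.5 and 16.1 counts of miR-2188-5p with vitamin E, against 16.2, 14.4 and 18.2 in control. The ratio averaged 15.9 ± 2.35 with vitamin E, against 16.2 ± 1.89 in control (SD, n = 3 each; two-sided exact permutation p = 0.8, where 0.1 is the smallest possible). The level of miR-2188-5p spanned a wider range, from 264 to 898 TPM. Over the 6 libraries the SD of its log2 ratio to the red-cell sum was 0.17, the smallest of 235 tested miRNAs other than the markers. miR-499-5p, which belongs to the striated muscle markers and not to those of red cells, came next with 0.21. The 20 other tested members ran from 0.48 for miR-2188-3p to 1.73 for miR-3536. Counts per library were 1939 to 5473 for miR-2188-5p, against 21 to 31 for miR-2188-3p and 3 to 79 for miR-3536. Counting error raises the SD of rare miRNAs, and its part was not separated. This comparison was chosen after the values were seen and is a description. Its permutation p therefore cannot show that the groups have the same ratio. The part that blood content has in the level of miR-2188-5p was not tested. Fewer red cells in a sample, less RNA per red cell and other differences in miR-451 and miR-2188-5p cannot be told apart here.

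**Figure D3:**
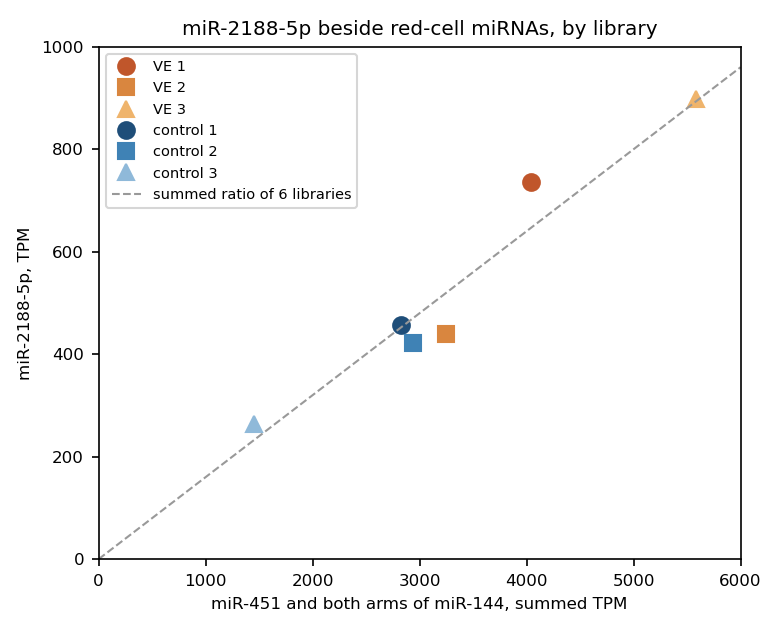
TPM of miR-2188-5p (vertical axis) against the summed TPM of miR-451 and both arms of miR-144 (horizontal axis) in each library, with vitamin E libraries in orange and control libraries in blue; the dashed line is the ratio of the sums over 6 libraries. The points lie near the line from control 3 at 264 TPM to vitamin E 3 at 898 TPM.

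miR-2954 is a miRNA of the avian Z chromosome, known in birds for higher expression in males; all chicks of this study were female. It stood at 202.9, 182.9 and 249.97 TPM in the vitamin E libraries, against 311.8, 179.2 and 123.1 TPM in the control libraries. The vitamin E values lay inside the range of the control values. Means were 204 ± 31.6 CPM with vitamin E, against 220 ± 127 CPM in control (SD, n = 3 each), and the log2 fold change of -0.11 (SE 0.42) turned to 0.40 without control 1 and to 0.05 with library totals alone (edgeR quasi-likelihood, Benjamini-Hochberg adjusted p = 0.917 with all libraries). The 95% interval, from -1.07 to 0.85, leaves room for a difference of close to 2-fold in either direction. miR-2131, whose gene shares the neighbour MIR1583 with the gene of miR-2954 within 10 kb in GRCg7b, was much rarer. Its 5p arm had 20.19, 17.98 and 13.29 TPM with vitamin E, against 11.4, 17.7 and 11.4 TPM in control, for a log2 fold change of 0.25 (SE 0.41). Its 3p arm had 4.45, 3.40 and 4.76 TPM with vitamin E, against 8.70, 2.19 and 6.52 TPM in control, for a log2 fold change of -0.62 (SE 0.59), and -0.20 without control 1.

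On the lower side the 5 tested members with the smallest p were miR-3525, miR-3529, miR-3536, miR-3523 and miR-3524a, and each had its highest value in 1 control library. miR-3525 had 3.76, 10.2 and 3.12 TPM with vitamin E, against 41.4, 7.56 and 7.88 TPM in control. The second vitamin E library exceeded 2 of the control libraries. Its log2 fold change was -1.94 (SE 0.86), and -0.56 without control 1. miR-3523, the hairpin in DUSP1, had 77.2, 126.3 and 77.7 TPM with vitamin E, against 309.4, 53.7 and 136.9 TPM in control. Control 2 was the lowest of all 6 libraries and control 1 the highest. Its log2 fold change of -1.01 (SE 0.63) shrank to -0.16 without control 1. miR-3524a, in the potassium channel subunit gene KCNE2, had 13, 22 and 12 counts with vitamin E, against 40, 9 and 26 in control, with a log2 fold change of -0.79 (-0.27 without control 1). For these 5, adjusted p ran from 0.605 for miR-3525 to 0.738 for miR-3524a in the quasi-likelihood test of edgeR with Benjamini-Hochberg adjustment. Over the alternatives on all 6 libraries, the Benjamini-Hochberg adjusted p of miR-3525 ran from 0.0937 (edgeR with no filter) to 0.718 (edgeR with the replicate block), with 0.2495 in DESeq2, and that of miR-3536 from 0.165 (edgeR with no filter) to 0.906 (edgeR with the replicate block).

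miR-3529 comes from a gene that overlaps MIR7-2, a gene of miR-7, so the identity of its reads is uncertain. It had 8, 14 and 14 counts in the vitamin E libraries, against 41, 19 and 14 in the control libraries. The highest vitamin E count equalled the lowest control count. Its log2 fold change was -1.21 (SE 0.58), and -0.66 without control 1. miR-7 itself had 1 count in vitamin E 2 and 0 in each of the other libraries, where 0 allows up to 3 counts.

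The high values of single members gathered in control 1. Values here and for control 2 below are CPM on TMM-scaled library sizes. The TMM factor was 0.860 for control 1, which raises its values, and 1.00 to 1.05 for the other 5 libraries. Control 1 was the highest library for 10 of the 21 tested members (47.6%) and for 73 of all 238 tested miRNAs (30.7%). It lay over 2-fold above the median of the other 5 libraries for 8 tested members (38.1%) and for 44 of all tested (18.5%). The ratio of control 1 to that median was 6.40 for miR-3525, 4.72 for miR-3523, 3.78 for miR-3529 and 3.20 for miR-7455-3p. It was 3.18 for miR-3524a, 2.63 for miR-3532-3p, 2.30 for miR-2131-3p and 2.03 for miR-2954. By TPM each of these ratios is smaller, and those of miR-2131-3p and miR-2954 fall under 2-fold. miR-6615-5p, highest in control 1 by CPM, was highest in vitamin E 2 by TPM (6.37, against 6.15 in control 1). miR-7455-3p, from a hairpin in the actin regulator gene CARMIL1, had 31, 61 and 46 counts with vitamin E, against 99, 12 and 41 in control, so control 1 and control 2 were the highest and the lowest of the 6 libraries. Its log2 fold change of -0.28 (SE 0.70) was 0.70 without control 1. The part of this library in the lower values of the vitamin E group was not tested beyond leaving it out.

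**Figure D4:**
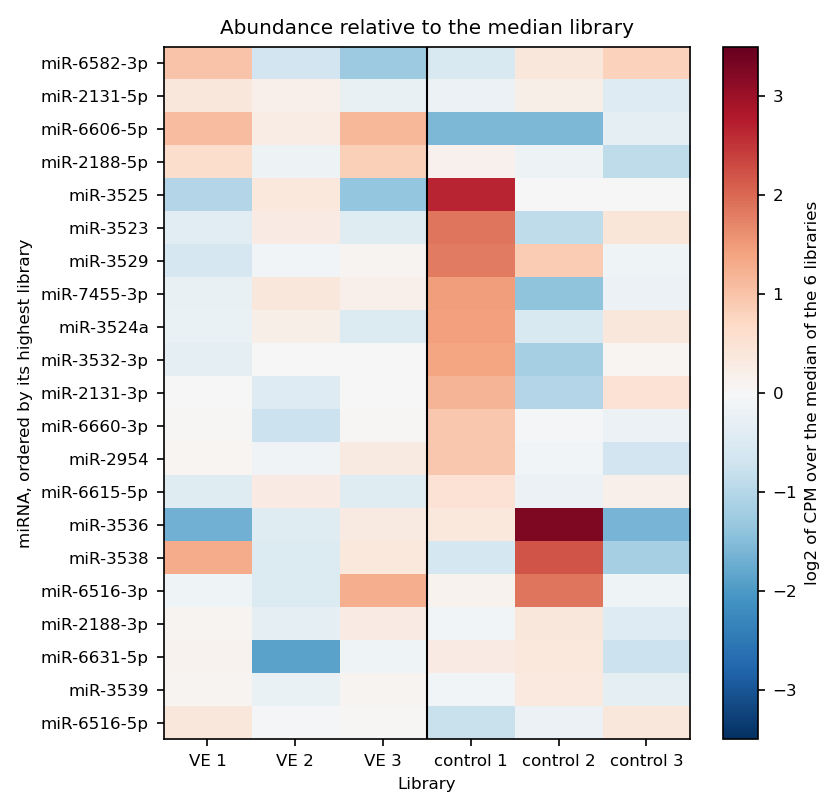
Log2 of the CPM, on TMM-scaled library sizes, of each of the 21 tested members over its median of the 6 libraries (colour). Vitamin E libraries are left of the line and control libraries right of it. Rows are ordered by the library in which the member was highest; 10 members are highest in control 1 and 6 in control 2, and 1 tested member is highest in control 3.

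Control 2 was the highest library for 6 of the 21 tested members (28.6%) and for 17.2% of all tested miRNAs. It lay over 2-fold above the median of the other 5 libraries for 3 tested members (14.3%) and for 5.46% of all tested, namely miR-3536 (12.9), miR-3538 (6.44) and miR-6516-3p (4.05). miR-6516-3p had 11, 11 and 32 counts with vitamin E, against 13, 38 and 14 in control. Its gene has no small nucleolar RNA symbol, and no such gene was found beside it within 10 kb. Genes that overlap it were left out of that search. In RefSeq the hairpins of miR-3535, miR-3538 and miR-3540 are listed under the symbols SNORD20, SNORD83A and SCARNA15, small nucleolar and Cajal body RNAs that guide chemical modification of ribosomal and spliceosomal RNA. SNORD20 lies in NCL, the nucleolin gene, and SNORD83A in RPL3, a ribosomal protein gene. The identity of these rows as miRNAs is therefore uncertain. The genes of miR-3528 and miR-3536 keep miRNA symbols and have an annotated small nucleolar RNA gene within 10 kb. miR-3538 had 90, 33 and 51 counts with vitamin E, against 23, 145 and 21 in control. Control 2 was the highest and the other control libraries were the lowest. Its log2 fold change was -0.36 (SE 0.90), and 1.45 without control 2. miR-3536 had 3, 9 and 13 counts with vitamin E, against 12, 79 and 4 in control. Its log2 fold change was -2.24 (SE 1.14) and moved to 0.04 without control 2. This member passed the filter through vitamin E 3, control 1 and control 2, so nothing is read from its fold change. miR-3535 had 15, 4 and 6 counts with vitamin E, against 5, 41 and 2 in control. miR-3528 had 1, 0 and 2 with vitamin E, against 2, 9 and 0 in control. miR-3540 had 2, 0 and 1 with vitamin E, against 1, 3 and 3 in control, level between control 2 and control 3 by count.

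Summed, these 5 members stood at 18.99, 6.51 and 11.97 TPM in the vitamin E libraries, against 6.45, 55.1 and 4.08 TPM in the control libraries. A lower-numbered row with a small nucleolar RNA symbol, miR-1563 (SNORD69), was also highest in control 2, with 49, 33 and 51 counts with vitamin E, against 52, 153 and 11 in control. Another, miR-1434 (SNORD37), had 4, 2 and 5 counts with vitamin E, against 6, 1 and 0 in control. Control 2 was also the library with the highest gut marker sum, at 922 TPM, while the other 5 libraries stood at 103 to 167 TPM; its part in these values was not tested. These rows were brought together after their values were seen.

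The groups overlapped for each of the remaining tested members. miR-3539 varied least of the 21 between its lowest and highest library, with 25, 25 and 27 counts with vitamin E, against 21, 25 and 24 in control. miR-2188-3p was close to it, with 25, 23 and 31 counts with vitamin E, against 21, 26 and 22 in control, for a log2 fold change of 0.06 (SE 0.45; -0.03 with upper-quartile scaling). miR-6631-5p, in the kinase gene ITPKC, had 58, 18 and 52 counts with vitamin E, against 63, 58 and 40 in control, with 1 low library in the vitamin E group. miR-6615-5p, in the metalloprotease gene ADAMTS10, had 22, 45 and 24 counts with vitamin E, against 41, 22 and 43 in control. Its groups each held high and low libraries. Log2 fold changes of the last 3 tested members were -0.32 for miR-6582-3p, -0.51 for miR-6660-3p and -0.54 for miR-3532-3p, and none of their libraries exceeded 9.24 CPM. The coefficient of variation was larger in control than with vitamin E for 18 of the 21 tested members (85.7%) and for 73.5% of all tested miRNAs. Its median over the tested members was 28.2% with vitamin E, against 57.7% in control, and over all tested miRNAs 22.1% and 34.7%. At low counts part of the spread is counting error. Among the most abundant members the coefficient was 33.5% with vitamin E and 34.6% in control for miR-2188-5p. It was 15.5% and 57.7% for miR-2954, and 29.1% and 87.4% for miR-3523. The cause of the larger spread in control was not tested. Another 16 members were seen in every library but not tested, with totals of 9 counts (miR-3064-5p) to 73 counts (miR-3535).

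Arm use could be followed in few hairpins. Both arms were listed for 31 of the 120 hairpins, only the 5p arm for 33 and only the 3p arm for 38, while 18 had a name without an arm. At least 10 counts over both arms in every library were found for 5 hairpins. miR-2188 was almost wholly read from its 5p arm, at 99.4% ± 0.0959 of both arms with vitamin E, against 99.0% ± 0.281 in control (SD, n = 3 each; two-sided exact permutation p = 0.2). miR-6615 likewise favoured 5p, at 94.1% ± 5.24 and 97.8% ± 2.18 (exact permutation p = 0.4). miR-7455 was read from its 3p arm, with 1 count of the 5p arm among 291 counts of both arms over all libraries.

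miR-2131 and miR-6516 kept both arms in measurable amounts. For miR-2131 the 5p arm had 118, 127 and 81 counts in the vitamin E libraries, against 76, 89 and 84 in the control libraries. The 3p arm had 26, 24 and 29 counts with vitamin E, against 58, 11 and 48 in control. The 5p share was 79.9% ± 5.53 with vitamin E, against 69.8% ± 17.0 in control, and the groups overlapped (SD, n = 3 each; two-sided exact permutation p = 0.4). For miR-6516 the 5p arm had 14, 13 and 12 counts with vitamin E, against 6, 8 and 18 in control, and its 3p counts are given above. Its 5p share was 45.8% ± 16.1 with vitamin E, against 35.1% ± 19.7 in control (exact permutation p = 0.7), so neither arm led in every library. The difference in 5p share, 10.7 points for miR-6516, ran from 1.90 points without control 2 to 21.3 without control 3, and that of miR-2131, 10.1 points, from 3.58 without control 1 to 19.7 without control 2. Over the 5 hairpins the Benjamini-Hochberg adjusted permutation p was at least 0.667, and with 3 libraries against 3 no p below 0.1 is possible.

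**Figure D5:**
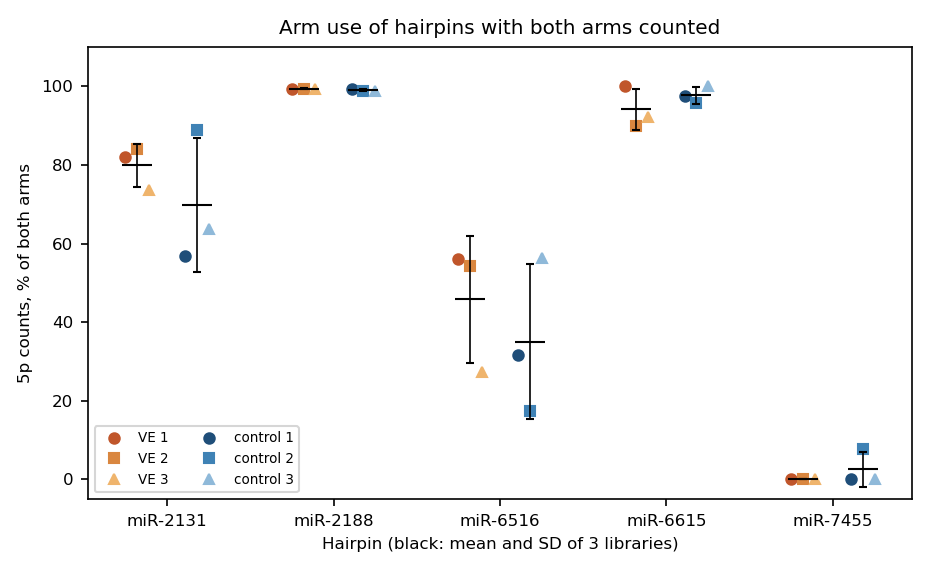
Counts of the 5p arm as a percentage of both arms for the 5 hairpins with at least 10 counts over both arms in every library; points are libraries (vitamin E orange and left, control blue and right), and black marks are the mean and SD of 3 libraries. miR-2188 and miR-6615 lie near 100%, miR-7455 near 0, and miR-2131 and miR-6516 between them with wide spread.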

How the data were processed

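Small RNA was sequenced from abdominal fat, 3 vitamin E and 3 control libraries grouped by their treatment label. The deposited table holds read counts, whole numbers for each mature miRNA per the file headers. Beside them the authors deposited TPM values, which equal those counts divided by the library total and multiplied by 1000000, so length plays no part. Aligner, counting rule, miRNA reference and build: not given in the sources used here. No column of another sample was present.

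Members and lists were chosen with earlier results of these data known. The whole table was fitted with edgeR 4.0.16 in R 4.3.3 (TMM factors, filterByExpr by group with minimum count 10 and minimum total 15, robust quasi-likelihood F test), with Benjamini-Hochberg adjustment over 238 miRNAs at 0.05. SE is the log2 fold change over the root of F. Alternatives used DESeq2 1.42.0, limma 3.58.1, other scaling and filters, a replicate block and each library left out. Arm shares were compared by two-sided exact permutation over 20 relabellings (scipy 1.17.1). The procedure was tested on simulated data. For the edgeR fit, every simulated miRNA had the same spread beyond counting error, unlike these data. That test therefore does not show which differences among the members would be missed.

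Members were named singly if called, among the 5 smallest p in each direction, among the 10 highest mean TPM, or an arm of a hairpin with enough counts; others named were chosen after their values were seen. A planned naming by shared seed was not carried out. Gene names and overlaps come from RefSeq (GRCg7b), with no coordinates, since the build of the table is not stated. Overlaps were called without regard to strand.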

Additional observations from a re-analysis of the deposited data

How the results depend on the processing

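The count of members called was 0 in all 15 alternative fits, with the edgeR, DESeq2 and limma tests named above. Over all miRNAs, where 1 was called, upper-quartile factors gave 0, no filter 8, DESeq2 6 (3 adjusted p not given by the tool), limma on log2(TPM + 1) 3, and fits with 1 library left out 0 to 1. Libraries sharing a replicate number did not move together (correlation of deviations from group means -0.17, 0.0022 and -0.020); the replicate block gave 5 calls, 0 of them members. Requiring 3 or 10 counts left 21 or 13 members detected in every library, in place of 37. Of 17 tested members named by rule, 10 kept their sign in every fit that tested them; the filter of 10 CPM tested only 4 of the 17. The others turned as follows, the cause not being tested: miR-2188-3p -0.026 with upper-quartile factors; miR-2954 0.050 with library totals, 0.14 with limma at either pseudocount and 0.032 with the block; miR-3538 0.26 and 0.35 with limma (pseudocounts 1 and 0.1) and 0.42 with the block; miR-7455-3p 0.19 and 0.26 with limma and 0.14 with the block. With 1 library left out, ranges were -0.14 to 0.32 for miR-2188-3p, -0.45 to 0.40 for miR-2954, -2.79 to 0.043 for miR-3536, -0.90 to 1.45 for miR-3538, -1.23 to 0.45 for miR-6516-3p, -0.095 to 0.57 for miR-6516-5p and -0.64 to 0.70 for miR-7455-3p. Depth limits the 130 untested members, whose totals reached at most 73 counts.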
